A study of Mus musculus with 12 samples.

Results

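Pancreatic islets taken 5 days after beta cell ablation (5 DPA, read as days post-ablation) were compared with islets taken at day 3 (3 DPA), by RNA sequencing of 3 libraries at each day. These 6 of the 12 libraries of the series were chosen by their titles alone, and the comparison runs over the 17294 of 48709 genes in the deposited table that had enough counts to be tested. All 12 libraries came from islets of female mice labelled NSG RIP-DTR Htz. NSG is a severely immunodeficient strain without mature T, B and natural killer cells, and the RIP-DTR transgene drives a receptor for diphtheria toxin from the insulin promoter of the rat, so that the toxin kills insulin-producing cells. Htz is read as heterozygous. The 3 DPA and 5 DPA mice, and those of a 1 DPA group, received the toxin (DT). Mice of the control group (CTRL) carried the transgene as well and had no treatment. The labels give neither the age of the mice, the toxin dose, nor whether each library is a separate animal.

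Islets are clusters of endocrine cells, mostly insulin-secreting beta cells with glucagon-secreting alpha and somatostatin-secreting delta cells, threaded by capillaries and resident macrophages. Adult beta cells divide rarely. A cell that enters division first switches on genes of DNA synthesis under E2F factors and, later, genes of mitosis that carry binding sites for the NF-Y and DREAM or MuvB complexes in their promoters. Immediate early genes, such as those of the FOS, JUN, EGR and NR4A families, are switched on within minutes by calcium, cyclic AMP or stress signals and need no new protein for it.

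Total counts lay between 35774473 and 48568665 at 3 DPA and between 35354631 and 50012558 at 5 DPA. Levels are given below as CPM, which are counts set relative to each library's scaled depth, and differences as the log2 fold change of 5 DPA against 3 DPA with its standard error. A gene is said to have risen or fallen when edgeR's quasi-likelihood test gave a Benjamini-Hochberg adjusted p under 0.05 over all genes tested. In these bulk samples, fewer cells of a type and less RNA per cell cannot be told apart. The tissue label held: Ins2 lay between 102415 and 141936 CPM, and Gcg, the glucagon gene, between 19731 and 44267 CPM, over the 6 libraries. Of the lymphocyte and natural killer markers 4 of 11 had enough counts to be tested, and the sum of the list was 9.65, 10.1 and 25.2 CPM at 3 DPA and 8.93, 17.0 and 49.5 CPM at 5 DPA. Cd3e, part of the T cell receptor complex, was at 0 in all 6 libraries. Cd4, a marker of T helper cells that myeloid cells can also carry, gave 1.86, 0.877 and 17.1 CPM at 3 DPA and 5.17, 10.3 and 43.2 CPM at 5 DPA, and Cd79a, part of the B cell receptor, 7.24, 8.71 and 7.23 CPM and then 2.93, 6.01 and 3.67 CPM. Cd8a stayed at or below 1.27 CPM and Trac at or below 0.76 CPM, and none of these 4 passed the test between the days. Within the groups, 5 DPA replicate 1 was the highest library for cell division and matrix genes, and 3 DPA replicate 1 for immediate early and histone genes. Beside single genes or their lists is given how many of the 6 fits that each leave out 1 library kept them.

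Between the 2 days 547 genes changed, which is 3.16% of those tested. Most of the change was downward: 425 genes fell (2.46%) and 122 rose (0.705%). All 3 libraries of one day lay apart from all 3 of the other for each of these genes, which was also the case for 28.6% of all genes tested. The median log2 fold change was 0.88 among the genes that rose and -0.57 among those that fell, against -0.01 over all genes tested. More than a log2 unit separated the days for 49 of the rises and 129 of the falls. The calls sit close to the threshold. Leaving out 3 DPA replicates 1, 2 and 3 in turn left 48, 288 and 186 calls, and leaving out 5 DPA replicates 1, 2 and 3 in turn left 33, 31 and 70. None of the 547 changed direction in any of these fits, and 234 were called in none of them. With the replicate number of the 3 and 5 DPA libraries as a block, 280 genes were called, 67 of them higher, against 122 higher without it. Against CTRL, 12.6% of genes differed at 3 DPA (10.2% higher, 2.37% lower) and 8.54% at 5 DPA (5.87% higher, 2.67% lower). Those comparisons share the 3 and 5 DPA libraries with this one, and levels in CTRL are given as values beside those of the 2 days.

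**Figure D1:**
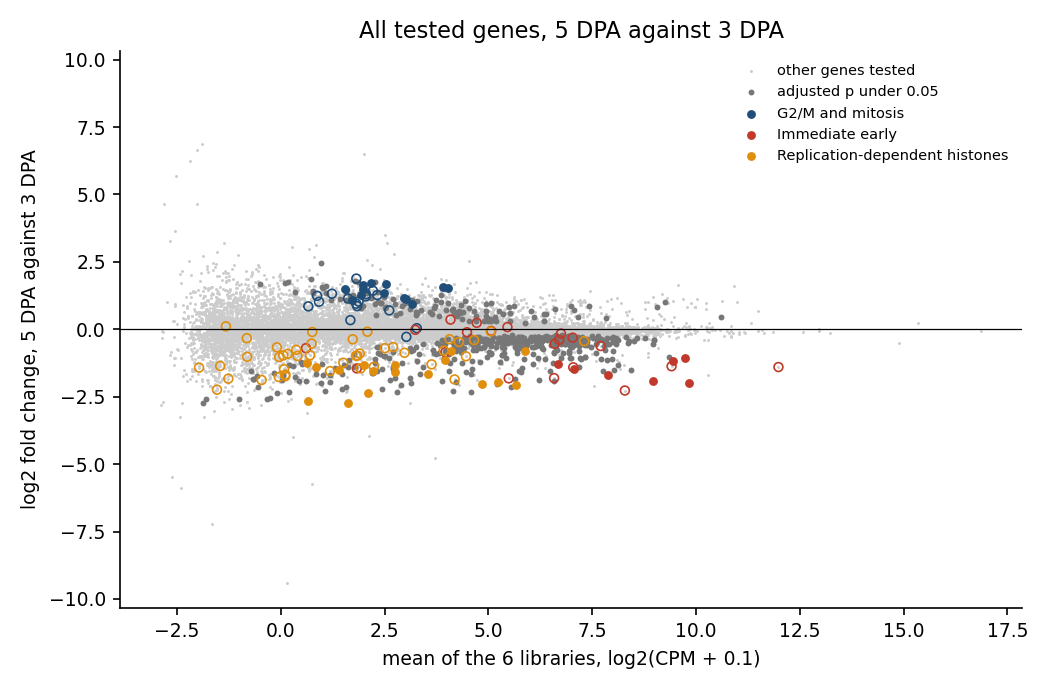
Each point is 1 of the 17294 genes tested; the horizontal axis is the mean of the 6 libraries as log2(CPM + 0.1) and the vertical axis is the log2 fold change of 5 DPA against 3 DPA. Filled circles in the coloured groups passed the test and open ones did not; 29 of 30 mitosis genes sit above 0, at low levels, and most immediate early and histone genes sit below 0.

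**Figure D2:**
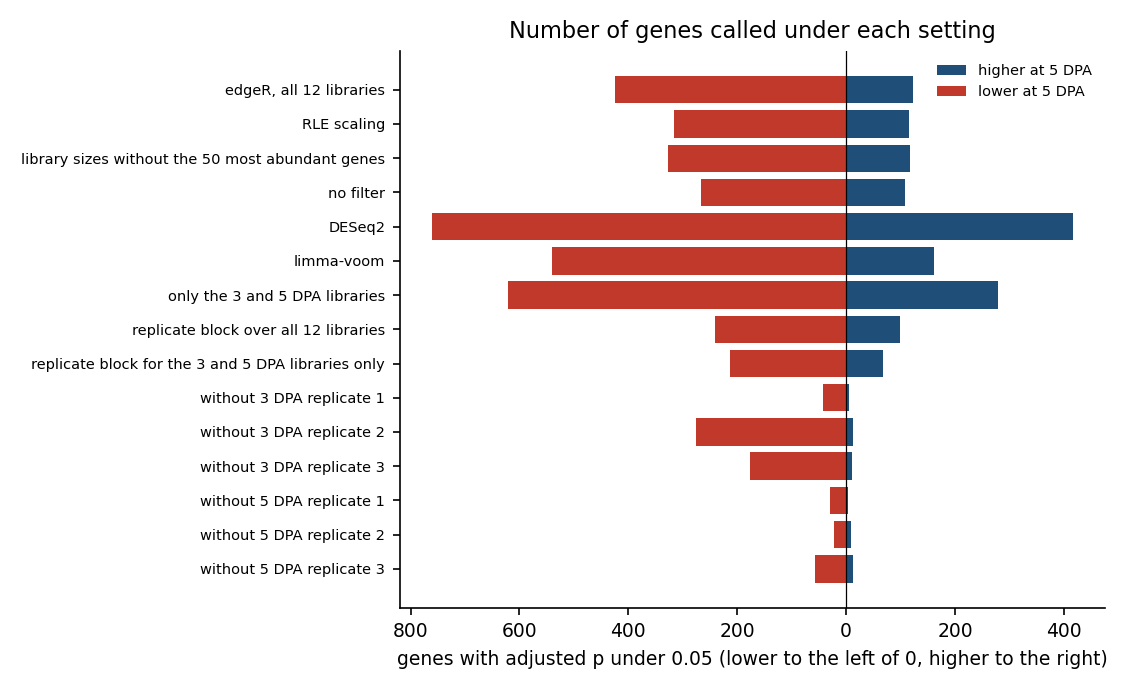
Bars give the number of genes called higher (right of 0) and lower (left of 0) at 5 DPA under each setting named on the vertical axis. The bars shrink in each of the 6 fits that leave out 1 library, and lower calls outnumber higher ones in every bar pair.

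The most stable differences were falls. Called in all 6 fits that left out 1 library were 23 genes, 22 lower and 1 higher. Nfkbid, an atypical inhibitor of NF-kB that acts in the nucleus (chr7:30421732-30428746, mm10), stood at 93.4, 63.3 and 72.0 CPM in 3 DPA replicates 1 to 3 and at 17.5, 15.2 and 19.8 CPM in 5 DPA replicates 1 to 3. Every 3 DPA library exceeded every 5 DPA library by a wide margin. The fall was 4.37-fold (log2 fold change -2.13 ± 0.21 SE, edgeR adjusted p = 0.00189). CTRL averaged 1.88 CPM and 1 DPA 19.4 CPM, so the 5 DPA level was still above that of CTRL (log2 fold change 3.22, adjusted p = 1.19e-04).

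Rsph4a, a radial spoke protein of motile cilia, had the smallest adjusted p together with Lmbrd1. It gave 71.4, 52.0 and 53.1 CPM at 3 DPA and 16.6, 14.8 and 11.6 CPM at 5 DPA, a 4.10-fold fall (log2 fold change -2.04 ± 0.17, edgeR adjusted p = 9.19e-04). Its CTRL mean was 1.64 CPM. Rsph6a, of the same complex, fell from 4.42, 2.63 and 2.85 CPM to 0.722, 0.516 and 0.828 CPM (log2 fold change -2.27 ± 0.40, edgeR adjusted p = 0.0193), but was called in 2 of the 6 fits that left out a library (adjusted p up to 0.0988). Of 8 tested radial spoke head genes only these 2 fell and none rose, beside 2.46% of all genes lower. The family's median log2 fold change was -0.01, with 4 fold changes above 0 and 4 below. The family was put together by gene symbol after its values were seen. Lmbrd1, which exports vitamin B12 from lysosomes, gave 182, 150 and 147 CPM at 3 DPA and 84.1, 84.6 and 90.6 CPM at 5 DPA (log2 fold change -0.89 ± 0.08, edgeR adjusted p = 9.19e-04). The CTRL mean was 67.4 CPM, and 5 DPA exceeded it by 0.36 on the log2 scale (adjusted p = 0.0205).

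Hivep2, Pnrc1, Zbtb10 and Rbks were also called lower in all 6 of these fits. Hivep2, a zinc finger transcription factor, went from 197, 169 and 147 CPM to 79.1, 74.8 and 93.7 CPM (edgeR adjusted p = 0.00135). Pnrc1, a coregulator of nuclear receptors, went from 510, 316 and 372 CPM to 148, 160 and 164 CPM (edgeR adjusted p = 0.00223). Zbtb10, a BTB zinc finger repressor, went from 437, 260 and 267 CPM to 105, 115 and 106 CPM, a 2.96-fold fall (edgeR adjusted p = 0.00335). Rbks, the ribokinase, fell 3.86-fold, from 38.6, 24.4 and 25 CPM to 5.95, 7.30 and 9.60 CPM (edgeR adjusted p = 0.00335). In each of these genes 3 DPA replicate 1 was the highest library and the groups lay far apart.

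The single rise called in all 6 fits was Man2b1, the lysosomal alpha-mannosidase. It gave 77.6, 65.0 and 72.1 CPM at 3 DPA and 119, 113 and 134 CPM at 5 DPA (log2 fold change 0.77 ± 0.10, edgeR adjusted p = 0.00682). At 5 DPA it also stood above the CTRL mean of 69.6 CPM (log2 fold change 0.81, adjusted p = 0.00152).

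**Figure D3:**
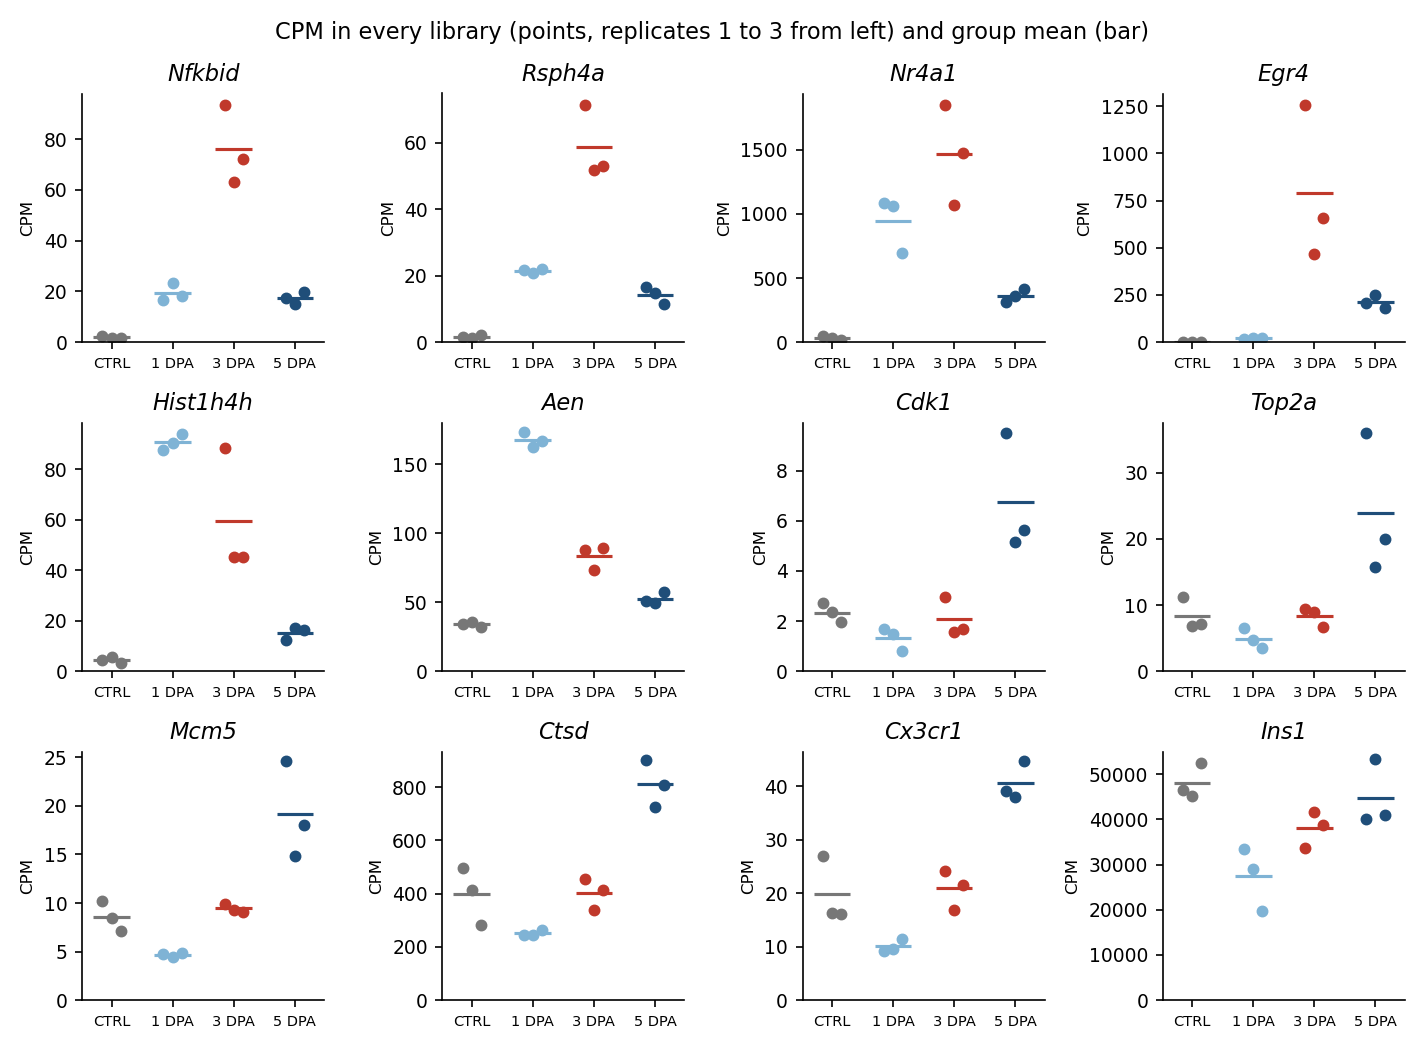
CPM of 12 genes on linear axes from 0, in the 3 libraries of each of CTRL, 1 DPA, 3 DPA and 5 DPA, with points for libraries and bars for group means. Nfkbid, Rsph4a, Nr4a1 and Egr4 are highest at 3 DPA, Cdk1, Top2a, Mcm5, Ctsd and Cx3cr1 are highest at 5 DPA, and the 3 and 5 DPA libraries of Ins1 overlap.

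Some immediate early genes fell. Of 27 tested members 7 fell and none rose, beside 2.46% of all genes lower, and 18 of 27 had every 5 DPA library below every 3 DPA library, against 16.5% of all genes. The median log2 fold change of the list was -1.08. DESeq2 called 10 members lower and limma-voom 11. The count was 4 with the replicate block. Leaving out 3 DPA replicates 1, 2 and 3 in turn gave 2, 7 and 3 calls, and 5 DPA replicates 1, 2 and 3 in turn 0, 0 and 1. Summed over the list, the level was 18369, 9776 and 13240 CPM at 3 DPA and 5506, 5899 and 4675 CPM at 5 DPA, with 1131 to 1937 CPM in CTRL. Against CTRL, 13 of the 27 were higher at 5 DPA and 18 at 3 DPA, and none was lower on either day.

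Nr4a1, an orphan nuclear receptor, gave 1847, 1070 and 1476 CPM at 3 DPA and 316, 360 and 414 CPM at 5 DPA. The lowest 3 DPA library was far above the highest 5 DPA library. The fall was 4.03-fold (log2 fold change -2.01 ± 0.37, edgeR adjusted p = 0.0266), with an adjusted p of 0.0680 under the replicate block and of up to 0.128 with 1 library left out. At 5 DPA it remained above the CTRL mean of 31.2 CPM (log2 fold change 3.54, adjusted p = 0.00159). Its relative Nr4a2 fell by 1.30 on the log2 scale (edgeR adjusted p = 0.0347; called in 1 of the 6 fits that left out a library).

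Egr4, a zinc finger factor, was nearly silent in CTRL at 0.152 CPM. It gave 1255, 466 and 657 CPM at 3 DPA and 205, 249 and 183 CPM at 5 DPA (log2 fold change -1.90 ± 0.31, edgeR adjusted p = 0.0193; adjusted p = 0.0302 with the replicate block). Leaving out 1 library gave adjusted p values up to 0.0947 and kept the call in 3 of 6 fits. Egr1 was also lower without passing: 8099, 4199 and 5361 CPM at 3 DPA against 2422, 2593 and 1655 CPM at 5 DPA (log2 fold change -1.40 ± 0.38, edgeR adjusted p = 0.0832). Egr2 gave a log2 fold change of -1.82 (adjusted p = 0.0832).

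Among AP-1 genes, whose products bind DNA as dimers, Jund went from 1161, 679 and 1081 CPM to 437, 457 and 401 CPM (log2 fold change -1.17 ± 0.17, edgeR adjusted p = 0.0107). Its call was kept in 2 of the 6 fits and ended without 3 DPA replicate 1 or any 1 of the 5 DPA libraries (adjusted p up to 0.0637). At 5 DPA, Jund did not pass the test against the CTRL mean of 369 CPM (log2 fold change 0.23, adjusted p = 0.452). Jun fell from 1521, 838 and 1095 CPM to 588, 576 and 473 CPM (edgeR adjusted p = 0.0310; called in 1 of the 6). Fos was lower too, with 265, 205 and 287 CPM against 171, 179 and 142 CPM, but did not pass (log2 fold change -0.62 ± 0.35, edgeR adjusted p = 0.399). Maff, a small MAF factor, fell 2.79-fold from 263, 154 and 168 CPM to 63.3, 66.1 and 80.6 CPM (edgeR adjusted p = 0.0119) and kept its call in 4 of the 6 fits.

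The DUSP family, gathered by gene symbol, includes phosphatases that switch MAP kinases off. Of its 21 tested members 3 fell and none rose, beside 2.46% of all genes lower. The family's median log2 fold change was -0.10, and 0 to 3 were called lower when 1 library was left out. Dusp8 went from 712, 405 and 408 CPM to 171, 182 and 182 CPM (log2 fold change -1.51 ± 0.24, edgeR adjusted p = 0.0169) and was called in 3 of the 6 fits that left out a library. Dusp4 went from 167, 68.8 and 114 CPM to 30.6, 33.1 and 30.9 CPM (log2 fold change -1.89 ± 0.32, edgeR adjusted p = 0.0217) and was called in 1 of the 6, with an adjusted p of up to 0.103. Vgf, a granule neuropeptide precursor and a classic cyclic AMP target, fell 2.85-fold from 490, 254 and 417 CPM to 152, 157 and 98.3 CPM (edgeR adjusted p = 0.0217). It was the only member of the 20 tested secretory granule genes to change, and was called in 1 of the 6 fits with a library left out (adjusted p up to 0.104). Crem, which encodes a cyclic AMP response modulator, fell by 0.87 on the log2 scale (edgeR adjusted p = 0.0295; called in 1 of the 6). The DUSP family was put together after its values were seen.

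Promoter sequence was available from RefSeq (GRCm38.p6; 250 bases before to 50 after each start) for 311 of the 425 genes that fell and 94 of the 122 that rose. The palindromic cyclic AMP response element, TGACGTCA, searched on both strands, was present in 31 of 382 promoter windows of genes that fell (8.12%) and in 7 of 113 windows of genes that rose (6.19%). Of all 16011 windows of tested genes 2.79% held it. The E-box CACGTG was in 18.6% of windows of the genes that fell, 7.08% of those of genes that rose and 9.14% of all. Shares for the AP-1 site TGACTCA were 4.19%, 2.65% and 4.10%, those for the TATA box TATAAA were 7.33%, 3.54% and 8.12%, and those for the CArG box, the serum response element core, were 1.05%, 1.77% and 1.28%. Apart from the CArG box, which can hold TATAAA, no one of these motifs contains the letters of another.

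Of the genes that fell with a cyclic AMP response element, Ing3, Zbtb11 and Dusp8 were picked by hand as examples. In each the element lies within the 250 bases before the start. Capitals mark TGACGTCA, and the sequences end at the base before the RefSeq start. Ing3, a subunit of histone acetyltransferase complexes, fell by 0.78 on the log2 scale (edgeR adjusted p = 0.00389), and Zbtb11, a BTB zinc finger factor, by 0.47 (edgeR adjusted p = 0.0181). With a library left out they were called in 6 and 2 of the 6 fits. Dusp8 holds 2 copies. A match is a run of letters and no evidence of binding.
Ing3, chr6:21949321-21949570, plus strand: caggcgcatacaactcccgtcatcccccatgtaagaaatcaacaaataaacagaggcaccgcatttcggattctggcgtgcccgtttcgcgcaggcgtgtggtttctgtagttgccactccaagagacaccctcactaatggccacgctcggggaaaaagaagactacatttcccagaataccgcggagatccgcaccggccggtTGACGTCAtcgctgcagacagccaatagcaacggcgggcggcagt
Zbtb11, chr16:55973554-55973803, plus strand: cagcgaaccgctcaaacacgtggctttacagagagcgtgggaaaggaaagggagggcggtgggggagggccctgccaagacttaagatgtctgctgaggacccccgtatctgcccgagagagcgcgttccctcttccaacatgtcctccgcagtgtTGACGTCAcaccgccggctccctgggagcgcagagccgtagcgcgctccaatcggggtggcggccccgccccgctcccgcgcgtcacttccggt
Dusp8, chr7:142095285-142095534, minus strand: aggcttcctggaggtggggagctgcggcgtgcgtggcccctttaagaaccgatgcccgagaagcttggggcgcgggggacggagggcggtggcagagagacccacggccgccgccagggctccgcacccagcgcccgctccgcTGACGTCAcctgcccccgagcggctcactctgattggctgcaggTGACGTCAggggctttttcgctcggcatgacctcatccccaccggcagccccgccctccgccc

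Some histone mRNAs fell. Replication-dependent histone genes, named by cluster (Hist1h to Hist4h), package newly made DNA and are normally expressed in S phase. Their mRNAs end in a short stem-loop instead of a poly(A) tail. Of 59 tested, 17 fell and none rose, beside 2.46% of all genes lower. In 49 every 5 DPA library was below every 3 DPA library, against 16.5% of all genes. The median log2 fold change was -1.15, and 58 of the 59 fold changes were below 0. DESeq2 called 31 lower and limma-voom 22. With the replicate block 6 were called. Leaving out 3 DPA replicates 1, 2 and 3 in turn gave 2, 13 and 8 calls, and 5 DPA replicates 1, 2 and 3 in turn 0, 0 and 1. The summed level of the family was 1063, 691 and 782 CPM at 3 DPA and 400, 482 and 440 CPM at 5 DPA, next to 342 to 403 CPM in CTRL and 1052 to 1216 CPM at 1 DPA. Against CTRL, 32 of the 59 were higher at 5 DPA and 45 at 3 DPA, and none was lower on either day. The median log2 fold change against CTRL was 1.59 at 5 DPA and 2.79 at 3 DPA. Of all genes, 5.87% and 10.2% were higher than CTRL at 5 and 3 DPA.

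Hist1h4h, a histone H4 gene (chr13:23531050-23531519, mm10), gave 88.5, 45.1 and 45.1 CPM at 3 DPA and 12.4, 17.1 and 16.3 CPM at 5 DPA. The highest 5 DPA library was well below the lowest 3 DPA library (log2 fold change -1.97 ± 0.27, edgeR adjusted p = 0.0107), and the call held in 4 of the 6 fits that left out a library. Hist1h4c (chr13:23697635-23698454) fell 5.18-fold, from 11.4, 4.58 and 5.02 CPM to 1.05, 1.77 and 1.24 CPM (edgeR adjusted p = 0.0119; called in 2 of the 6). Hist1h1t, the testis linker histone gene beside it (chr13:23695814-23696725), fell 6.65-fold from 6.79, 4.24 and 4.34 CPM to 0.836, 0.853 and 0.607 CPM (edgeR adjusted p = 0.0116; called in 2 of the 6). Both calls ended without 3 DPA replicate 1 and without any 1 of the 5 DPA libraries. Hist1h2ad had 0 CPM in CTRL, 3.96, 2.38 and 1.28 CPM at 3 DPA and 0.171, 0.655 and 0.359 CPM at 5 DPA (log2 fold change -2.67 ± 0.51, edgeR adjusted p = 0.0299; 0.0565 with the replicate block), and was called in 1 of the 6. Near-identical copies make up this family, so the split of reads between its members is uncertain.

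The stem-loop was searched in GENCODE M21 transcripts as a 6-base stem beginning with GG, a 4-base loop beginning with TT and the matching stem, 16 bases in all. A match anywhere in a transcript was counted, and 57 of the 59 tested histone genes had a transcript to search. It was found in 37 of the 59, and in 13 of the 17 that fell. These are the forms carried by the genes just described, with the stem in capitals and the loop in lower case. How much of these mRNAs a poly(A)-based library keeps was not tested.
Hist1h4h: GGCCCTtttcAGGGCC
Hist1h4c: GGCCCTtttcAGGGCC
Hist1h2ad: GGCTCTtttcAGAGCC
Hist1h1t: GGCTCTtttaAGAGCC

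H3f3b, a replication-independent H3.3 gene whose mRNA is polyadenylated, fell too. It gave 1262, 608 and 768 CPM at 3 DPA and 424, 429 and 431 CPM at 5 DPA (log2 fold change -1.04 ± 0.21, edgeR adjusted p = 0.0325), and it was called in 1 of the 6 fits that left out a library. The 5 DPA libraries were nearly equal, and 3 DPA replicate 1 was the highest of the 6. It was named after its values were seen.

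Some genes of G2/M and mitosis rose. Of 30 tested members 13 rose and none fell, next to 0.705% of all genes higher, and 26 of 30 had every 5 DPA library above every 3 DPA library, against 12% of all genes. The median log2 fold change was 1.23. DESeq2 called 23 and limma-voom 14. With the replicate block 11 were called. None of the 13 calls was kept in any of the 6 fits that left out a library. Without 3 DPA replicate 1 another member was called, and in the other 5 fits 0 were. The summed level was 117, 97.9 and 84.2 CPM at 3 DPA and 308, 158 and 175 CPM at 5 DPA. Replicate 1 was the highest at 5 DPA, and the lower 5 DPA libraries still lay above all 3 DPA libraries. In CTRL the sum was 74.1 to 104 CPM and at 1 DPA 79.8 to 98.1 CPM.

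Cdk1, the kinase that starts mitosis, gave 2.96, 1.58 and 1.69 CPM at 3 DPA and 9.48, 5.16 and 5.63 CPM at 5 DPA. The rise was 3.24-fold (log2 fold change 1.70 ± 0.34, edgeR adjusted p = 0.0247; 0.0209 with the replicate block). Its cyclin partner Ccnb1 rose 3.10-fold, from 2.33, 1.53 and 1.74 CPM to 8.82, 4.58 and 3.94 CPM (edgeR adjusted p = 0.0334). Mki67, the proliferation marker Ki-67, gave 7.79, 8.52 and 6.32 CPM and then 33.8, 16.4 and 17.0 CPM (log2 fold change 1.57 ± 0.35, edgeR adjusted p = 0.0400; 0.0648 with the replicate block). Top2a, the topoisomerase that untangles chromosomes, went from 9.35, 9 and 6.63 CPM to 36, 15.7 and 20.0 CPM (log2 fold change 1.52 ± 0.33, edgeR adjusted p = 0.0366). Foxm1, a transcription factor of the G2/M genes, rose 2.24-fold (edgeR adjusted p = 0.0247). In all of these 5 DPA replicate 1 was the highest library, and with 1 library left out their adjusted p values lay between 0.0516 and 0.154.

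Further spindle and chromosome genes were also highest in 5 DPA replicate 1. Tpx2, a spindle assembly factor, rose from 3.07, 2.04 and 3.04 CPM to 11.2, 6.11 and 8.69 CPM (log2 fold change 1.67 ± 0.35, edgeR adjusted p = 0.0295), but was called in none of the 6 fits that left out a library (adjusted p between 0.0615 and 0.128). Ckap2, a microtubule stabiliser, went from 1.76, 1.78 and 1.32 CPM to 8, 4.15 and 4.03 CPM (edgeR adjusted p = 0.0165) and kept its call in 3 of the 6 fits with a library left out. Pbk, a mitotic kinase, rose 3.35-fold (edgeR adjusted p = 0.0263; 0.0621 with the replicate block) and was called in none of the 6. Of 8 tested condensin subunits, which compact chromosomes, 4 rose, among them Ncaph from 1.76, 1.36 and 1.59 CPM to 5.93, 2.90 and 3.59 CPM (edgeR adjusted p = 0.0337; called in none of the 6). Leaving out 1 library gave 0 or 1 condensin calls. Of 21 tested genes of the Fanconi and recombination pathways 4 rose, with 0 to 2 called when 1 library was left out. Of all genes 0.705% rose. These 2 families were put together after their values were seen.

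Promoters of the mitosis list were searched for the CCAAT box (CCAAT, the NF-Y site) and the cell cycle homology region (TTTGAA), on both strands, as motifs added after the data were seen. Among the 26 windows of 25 list members, 21 held a CCAAT box (80.8%) and 20 the homology region (76.9%). Over all windows of tested genes the shares were 37% and 12.6%, and over windows of the DNA replication list 50% and 10.7%. The membership of the list, and not the change between days, sets these shares. Cdk1, Cdc20 and Top2a are shown, with both motifs in capitals (ATTGG is CCAAT on the other strand, and TTCAAA is TTTGAA), up to the base before the start.
Cdk1, chr10:69352913-69353162, minus strand: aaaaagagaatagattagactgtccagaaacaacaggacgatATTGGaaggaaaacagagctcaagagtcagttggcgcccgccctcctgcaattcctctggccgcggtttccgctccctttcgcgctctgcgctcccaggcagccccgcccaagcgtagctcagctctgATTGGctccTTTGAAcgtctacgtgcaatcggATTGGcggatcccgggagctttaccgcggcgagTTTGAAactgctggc
Cdc20, chr4:118437344-118437593, minus strand: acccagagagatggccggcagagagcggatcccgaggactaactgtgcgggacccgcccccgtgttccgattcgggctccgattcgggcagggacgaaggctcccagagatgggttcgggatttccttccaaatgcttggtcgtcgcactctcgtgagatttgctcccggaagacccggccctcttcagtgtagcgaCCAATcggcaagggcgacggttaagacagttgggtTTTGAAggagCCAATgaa
Top2a, chr11:99024190-99024439, minus strand: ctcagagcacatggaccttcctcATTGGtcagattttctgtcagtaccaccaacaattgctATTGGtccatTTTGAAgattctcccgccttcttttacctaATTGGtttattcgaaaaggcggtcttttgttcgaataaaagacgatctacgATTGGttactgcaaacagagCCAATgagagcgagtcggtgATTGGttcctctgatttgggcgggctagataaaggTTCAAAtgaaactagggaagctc

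Some genes of G1/S and DNA replication rose. Of 29 tested members 10 rose and none fell, beside 0.705% of all genes higher, and 21 had all 5 DPA libraries above all 3 DPA libraries, against 12% of all genes. The median log2 fold change was 0.59, DESeq2 called 13 and limma-voom 11, and 7 were called with the replicate block. Between 0 and 3 were called when 1 library was left out, and 5 of the 10 calls were lost in all 6 such fits. The summed level was 308, 279 and 297 CPM at 3 DPA and 524, 376 and 393 CPM at 5 DPA, again highest in 5 DPA replicate 1.

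Pole, the leading-strand polymerase, rose 2.63-fold from 2.81, 3.03 and 2.42 CPM to 9.67, 5.95 and 6.07 CPM (log2 fold change 1.39 ± 0.24, edgeR adjusted p = 0.0172), and was called in 2 of the 6 fits that left out a library. Of the MCM helicase that opens origins, Mcm5 rose from 9.95, 9.31 and 9.13 CPM to 24.6, 14.8 and 18 CPM (log2 fold change 1.01 ± 0.18, edgeR adjusted p = 0.0181), and Mcm2 from 19.8, 17.4 and 21.1 CPM to 36.2, 29.0 and 27.7 CPM (edgeR adjusted p = 0.0217). Both kept their calls in 2 of the 6 fits that left out a library, with adjusted p values up to 0.0730 and 0.0969. Rrm2, which makes deoxynucleotides, rose 2.26-fold (edgeR adjusted p = 0.0211; called in none of the 6). Pcna, the polymerase clamp, went from 25.4, 23.6 and 27.1 CPM to 41.5, 31.7 and 33.4 CPM (edgeR adjusted p = 0.0286; called in none of the 6).

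Most regulators of cell cycle entry were not called. Of 17 tested D cyclins, kinases and inhibitors 2 rose (11.8%) and 1 fell (5.88%), beside 0.705% of all genes higher and 2.46% lower. Ccnd2, the main D cyclin of mouse beta cells, gave 704, 844 and 840 CPM at 3 DPA and 818, 867 and 754 CPM at 5 DPA (edgeR adjusted p = 0.925). Cdk4 gave a log2 fold change of 0.03 (edgeR adjusted p = 0.870). Cdk2 rose by 0.59 and Rbl1, a pocket protein, by 0.48 on the log2 scale (edgeR adjusted p = 0.0491 and 0.0325; 0.0862 and 0.0682 with the replicate block; neither was called in any of the 6 fits that left out a library). Cdkn1a, the inhibitor p21, gave 310, 176 and 371 CPM at 3 DPA and 114, 131 and 149 CPM at 5 DPA (log2 fold change -1.12 ± 0.25, edgeR adjusted p = 0.0430; 0.0569 with the replicate block). Its call was kept in 1 of the 6 fits that left out a library, with adjusted p values up to 0.194. The 5 DPA level was above the CTRL mean of 37.4 CPM (log2 fold change 1.81, adjusted p = 0.00413).

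Further targets of p53, the stress-activated factor that induces p21, fell. Of 22 tested 5 fell, Cdkn1a among them, and none rose, beside 2.46% of all genes lower and 0.705% higher. The median log2 fold change was -0.28, with 3 called lower under the replicate block and 1 to 5 with a library left out. Aen, a nuclease of apoptotic cells, gave 88.0, 73.2 and 89.5 CPM at 3 DPA and 51.0, 49.0 and 57.5 CPM at 5 DPA (log2 fold change -0.67 ± 0.09, edgeR adjusted p = 0.00494) and was called in all 6 such fits. Bax, which opens mitochondria to cell death, fell 1.74-fold from 180, 121 and 168 CPM to 84.2, 91.3 and 93.4 CPM (edgeR adjusted p = 0.0184), and was called in 1 of the 6. Mdm2, the p53 ubiquitin ligase, changed by the least, from 80.8, 77.9 and 88.7 CPM to 64.9, 66.8 and 69.8 CPM (edgeR adjusted p = 0.0409; 0.0614 with the replicate block; called in none of the 6). Trp53, which encodes p53 itself, gave 56.2, 49.1 and 49.0 CPM and 49.6, 47.8 and 47.7 CPM (edgeR adjusted p = 0.685).

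Clock genes, which set daily rhythms, were lower in most libraries without any passing edgeR's test. Of 18 tested, 13 had every 5 DPA library below every 3 DPA library, against 16.5% of all genes, and the median log2 fold change was -0.90. At an unadjusted p under 0.05 there were 12, and DESeq2 called 9 and limma-voom 6 lower. Nr1d1, the repressor REV-ERB alpha, gave 2762, 1270 and 1673 CPM at 3 DPA and 526, 586 and 649 CPM at 5 DPA (log2 fold change -1.70 ± 0.44, edgeR adjusted p = 0.0736). Per1 gave 618, 302 and 388 CPM against 157, 173 and 195 CPM (edgeR adjusted p = 0.0858). Arntl, the activator BMAL1, whose mRNA normally runs in antiphase to these, gave 31.8, 28.3 and 28.6 CPM against 20.4, 25.4 and 23.9 CPM (edgeR adjusted p = 0.102). The labels do not give the hour of collection, and its part in the clock values was not tested.

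**Figure D4:**
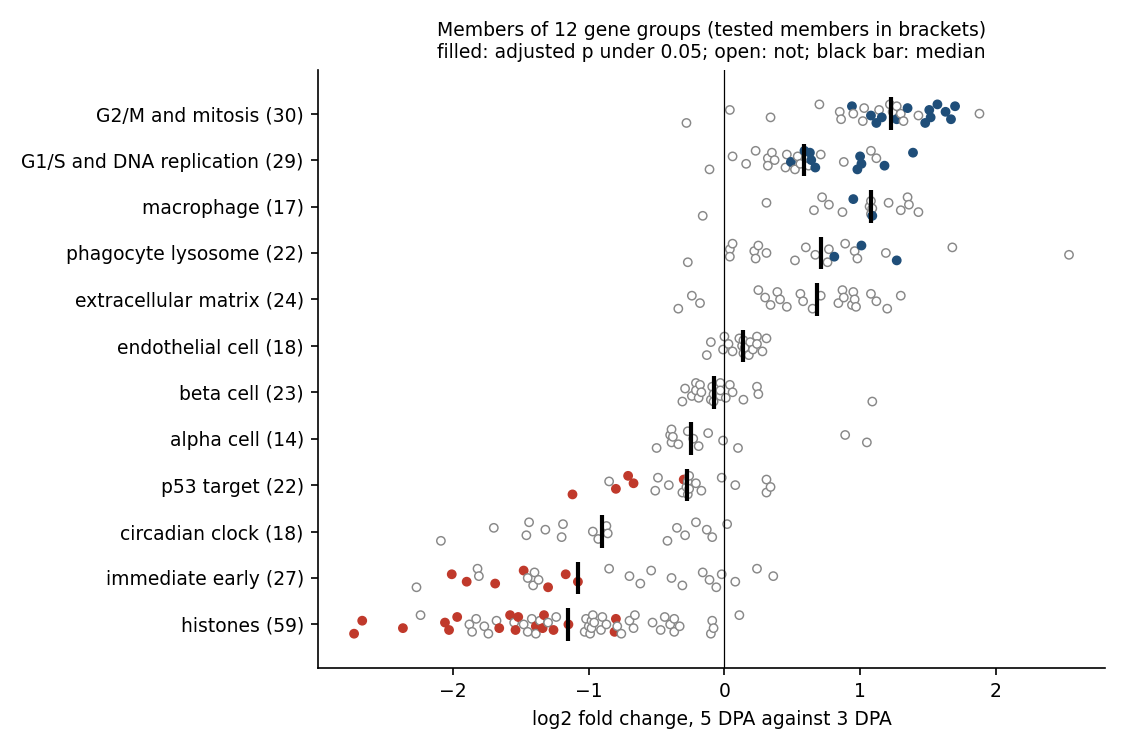
Log2 fold change of 5 DPA against 3 DPA for each tested member of 12 gene groups, with filled points for genes that passed, open points for others and a bar for the median. The mitosis median lies at 1.23 and the histone median at -1.15, while beta cell genes centre on -0.08.

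Some macrophage and lysosome genes rose. Of 17 tested macrophage markers 2 rose, beside 0.705% of all genes, and 13 had all 5 DPA libraries above all 3 DPA libraries, against 12% of all genes. The median log2 fold change was 1.08. At an unadjusted p under 0.05 there were 11. The summed level of the list was 556, 328 and 548 CPM at 3 DPA and 924, 893 and 1242 CPM at 5 DPA, with 189 to 780 CPM in CTRL. Cx3cr1, the fractalkine receptor, rose from 24.2, 16.9 and 21.6 CPM to 39.1, 37.9 and 44.7 CPM (log2 fold change 0.95 ± 0.20, edgeR adjusted p = 0.0307). Ms4a7, a surface protein of tissue macrophages, rose 2.13-fold (edgeR adjusted p = 0.0364). Neither call was kept when any 1 library was left out (adjusted p between 0.0633 and 0.154) or with the replicate block (0.0519 and 0.0561). Adgre1, which encodes F4/80, gave 19.7, 10.4 and 17.1 CPM against 24.6, 25.1 and 36.7 CPM without passing (edgeR adjusted p = 0.290).

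Among 22 tested genes of phagocyte lysosomes, lipid handling and uptake of dead cells 3 rose and none fell, beside 0.705% of all genes higher. The same 3 calls held with the replicate block, while 0 were called when any 1 library was left out. Ctsd, the protease cathepsin D, gave 454, 340 and 413 CPM at 3 DPA and 901, 725 and 807 CPM at 5 DPA (log2 fold change 1.01 ± 0.18, edgeR adjusted p = 0.0204). Ctsb, cathepsin B, gave 413, 329 and 417 CPM and then 727, 587 and 719 CPM (edgeR adjusted p = 0.0353). Trem2, a lipid-sensing receptor of phagocytes, rose 2.41-fold from 12.1, 5.18 and 7.91 CPM to 23.8, 18.7 and 18.5 CPM (edgeR adjusted p = 0.0430). For all 3 the lowest 5 DPA library was well above the highest 3 DPA library. The summed macrophage markers were also higher at 5 DPA. Their highest 5 DPA library was replicate 3, while Ctsd, Ctsb and Trem2 were highest in replicate 1. The part of macrophages in the lysosome values was not tested.

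Stromal and matrix genes were mostly higher at 5 DPA, and nearly none passed. Of all genes 0.705% rose. Of 19 tested fibroblast, stellate and pericyte markers 1 rose, Rgs5, a pericyte signalling regulator, from 191, 188 and 204 CPM to 286, 235 and 260 CPM (log2 fold change 0.42 ± 0.10, edgeR adjusted p = 0.0447; 0.0736 with the replicate block; called in none of the 6 fits that left out a library). Of 24 tested matrix genes none passed, while 11 had an unadjusted p under 0.05, all higher. DESeq2 called 1 and limma-voom 0. Col1a1, a chain of fibrillar collagen, gave 441, 214 and 346 CPM at 3 DPA and 1227, 644 and 601 CPM at 5 DPA (log2 fold change 1.30 ± 0.54, edgeR adjusted p = 0.250). The matrix sum was 4082, 3005 and 4049 CPM and then 8800, 5385 and 5284 CPM. Endothelial markers gave a median of 0.14 and no call in 18 tested, with 2 at an unadjusted p under 0.05 and 0 by DESeq2 or limma-voom. The cell cycle genes were highest in the same library, 5 DPA replicate 1, as the matrix genes, and the part of macrophages and stroma in the cell cycle values was not tested.

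**Figure D5:**
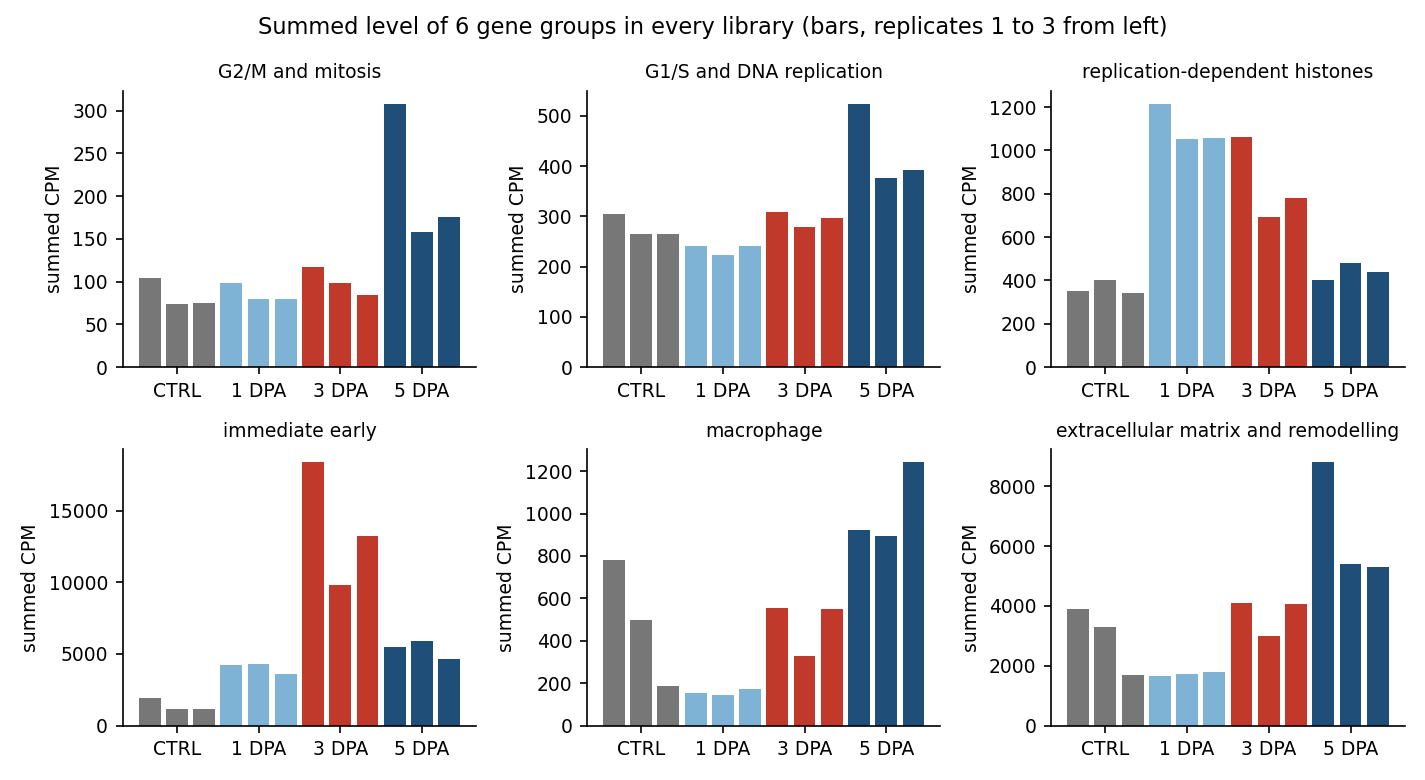
Summed CPM of 6 gene groups in each library, as bars from 0, with 3 bars per group in replicate order. The 5 DPA bars of the mitosis, DNA replication, macrophage and matrix groups all stand above the 3 DPA bars, and those of the histone and immediate early groups stand below them.

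No gene on the lists of endocrine identity passed edgeR's test between the days. Insm1, a transcription factor gene on none of these lists, fell by 0.40 on the log2 scale. It was called in 1 of the 6 fits that left out a library. Of 23 tested beta cell genes none was called by edgeR, DESeq2 or limma-voom, with 1 higher and 3 lower at an unadjusted p under 0.05, and the median log2 fold change was -0.08. With the replicate block 1 was called lower. Ins1 gave 33657, 41654 and 38740 CPM at 3 DPA and 40053, 53356 and 40944 CPM at 5 DPA, which overlap (edgeR adjusted p = 0.537), and Ins2 gave an adjusted p of 0.845. Together Ins1 and Ins2, near-identical genes whose reads may be split between them, took 16.1% ± 1.51 of all counts at 3 DPA and 16.5% ± 2.75 at 5 DPA (SD, n = 3; two-sided exact permutation p = 0.8, the smallest possible being 0.1). In CTRL the share was 17.2% ± 1.40 (SD, n = 3). At 5 DPA neither Ins1 nor Ins2 passed the test against CTRL (edgeR adjusted p = 0.781 and 0.601), nor did they at 3 DPA (edgeR adjusted p = 0.271 and 0.831). Of the 23 beta cell genes, 8 were lower than CTRL at 5 DPA and 5 at 3 DPA, and none was higher on either day. Pdx1, a master factor of beta cells, gave 165, 192 and 177 CPM at 3 DPA against 155, 187 and 156 CPM at 5 DPA. Mafa gave 498, 637 and 593 CPM against 511, 571 and 441 CPM, and Slc2a2, the glucose transporter, 709, 819 and 693 CPM against 681, 881 and 759 CPM. None of these groups lay apart.

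Of the 14 tested alpha cell and 11 delta and PP cell genes none was called by edgeR, DESeq2 or limma-voom, and none had an unadjusted p under 0.05. Gcg gave 29188, 32536 and 44267 CPM at 3 DPA and 32974, 22013 and 19731 CPM at 5 DPA (edgeR adjusted p = 0.302), and Sst, the somatostatin gene, an adjusted p of 0.643. Acinar genes, from the enzyme-secreting tissue around islets, took 1.27% ± 0.609 of counts at 3 DPA and 2.54% ± 1.68 at 5 DPA (n = 3, two-sided exact permutation p = 0.300), with 4.41% in 5 DPA replicate 3. Of 21 tested acinar genes none was called by the 3 tools or had an unadjusted p under 0.05. The share of the mitochondrial genome was 2.14% ± 0.188 and 2.04% ± 0.0750 (n = 3, two-sided exact permutation p = 0.6).

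Growth factor and hormone pathways held single changes. Of all genes 2.46% fell and 0.705% rose. Of 28 tested growth factor and IGF genes 1 fell and none rose: Irs2, the insulin receptor substrate that carries the IGF and insulin signal in beta cells, went from 242, 189 and 214 CPM to 99.0, 105 and 114 CPM (log2 fold change -1.02 ± 0.19, edgeR adjusted p = 0.0245; 0.0607 with the replicate block), and was called in 1 of the 6 fits that left out a library. Igf2 gave 530, 238 and 362 CPM at 3 DPA and 157, 189 and 163 CPM at 5 DPA without passing (log2 fold change -1.15 ± 0.32, edgeR adjusted p = 0.0924), and stood above the CTRL mean of 12.7 CPM on both days (log2 fold change 4.89 and 3.74, adjusted p = 3.69e-05 and 6.40e-04). Of the 12 tested genes of the prolactin, STAT5 and serotonin axis, which expands beta cells in pregnancy, edgeR called none, with 3 higher at an unadjusted p under 0.05 and 1 called each by DESeq2 and limma-voom. Prlr, the prolactin receptor, lay at the edge of the test, with 236, 273 and 267 CPM against 429, 457 and 340 CPM (log2 fold change 0.66 ± 0.16, edgeR adjusted p = 0.05).

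Most genes on the stress lists were not called. Of all genes 2.46% fell and 0.705% rose. In the integrated stress response 1 of 20 fell, Ddit3, the factor CHOP, from 44.0, 28.7 and 36.5 CPM to 21.4, 25.2 and 22 CPM (edgeR adjusted p = 0.0228; called in 1 of 6 fits with a library left out). In the NF-kB list 1 of 16 fell, Nfkbiz, from 55.0, 50.6 and 51.6 CPM to 31.1, 37.1 and 42.3 CPM (edgeR adjusted p = 0.0240; called in 2 of 6). Nfkbid, which fell as described above, is not on this list. The inducible chaperones went the other way. Hspa1b gave 109, 104 and 150 CPM and then 184, 238 and 246 CPM (log2 fold change 0.88 ± 0.15, edgeR adjusted p = 0.0197). Its near-identical neighbour Hspa1a also rose by 0.88. They were the only 2 of the 15 tested genes on the heat shock list to change. With a library left out they were called in 3 and 2 of the 6 fits. Hspa4 and Hspa9, which are not on this list, fell by 0.39 and 0.48 on the log2 scale and were called in 0 and 2 of the 6. Of the ER chaperone list, 21 tested, edgeR called none, with 2 higher at an unadjusted p under 0.05 and 1 called by DESeq2 and by limma-voom. Hspa5, the chaperone BiP, gave 1355, 1495 and 1431 CPM against 1368, 1323 and 1516 CPM.

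Several of the largest falls were in genes nearly absent from control islets. Gys2, the liver glycogen synthase, gave 40.7, 23.3 and 23.7 CPM at 3 DPA and 5.13, 4.68 and 8.50 CPM at 5 DPA, a 4.81-fold fall (log2 fold change -2.27 ± 0.50, edgeR adjusted p = 0.0413; 0.0922 with the replicate block), with 0.0642 CPM in CTRL. Serpinf2, which encodes the plasmin inhibitor alpha-2-antiplasmin of liver, fell 4.96-fold from 16.4, 8.80 and 8.84 CPM to 2.32, 2.44 and 2.10 CPM (edgeR adjusted p = 0.0476; 0.104 with the replicate block). Col24a1, a collagen gene, fell 4.15-fold (edgeR adjusted p = 0.0325; 0.0702 with the replicate block). At 5 DPA all 3 were above CTRL (log2 fold changes 6.51, 4.93 and 3.82, adjusted p = 0.00218, 0.00518 and 0.00309). With 1 library left out Gys2 and Serpinf2 lost their calls in every fit (adjusted p between 0.0747 and 0.216), and Col24a1 kept it in 1. The largest named rise outside the cell cycle was Adam33, a metalloprotease of mesenchymal cells, from 1.33, 1.44 and 1.67 CPM to 6.02, 5.53 and 3.97 CPM (log2 fold change 1.80 ± 0.40, edgeR adjusted p = 0.0347; 0.0801 with the replicate block), called in none of the 6 fits.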

How the data were processed

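RNA of 12 islet libraries was extracted with RNeasy Mini columns and turned into libraries with a QIAseq stranded mRNA kit, per the labels' protocols. The authors deposited raw counts of reads per gene, per the file headers, on build mm10, per the submitters' processing notes. Aligner, counter, annotation release and use of strand: not given in the sources used here. The 12 raw count columns entered the fits, and 36 columns of normalized values did not.

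Genes passing edgeR's filterByExpr (minimum count 10) were scaled by TMM and fitted with the robust quasi-likelihood model over all 12 libraries. Groups follow the labels. Whether each library is a separate animal is not said, so the p-values reflect spread between these libraries alone, and that spread may be technical. Counts of replicates differed by more than sampling noise. The standard error is the log2 fold change divided by the root of the F statistic. R 4.3.3 was used with edgeR 4.0.16 and limma 3.58.1, and DESeq2 1.42.0 as an alternative. Other alternatives were no filter, limma-voom, scaling by RLE or by library sizes that leave out the 50 most abundant genes, only the 3 and 5 DPA libraries, the replicate block and leaving out each library. Same-number libraries of the 2 days deviated together from their group means (correlations 0.156, 0.187 and 0.326, all above 0.1). The numbers were therefore used as pairs in the replicate block, from the data and not from the design. Libraries of different numbers gave correlations of -0.263 to 0.112, so 1 of these pairs (3 DPA replicate 2 with 5 DPA replicate 1) also passed 0.1. The main fit, which gave the calls, is unpaired. On simulated counts with 200 changed genes the fit recovered 82.0% of those raised and 73.0% of those lowered by 1 log2 unit, and 10 of 165 calls were false.

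The comparison, gene lists and tests were chosen with earlier results of these data known, so lists are described by counts and medians. The genes named were called, averaged at least 1 on the log2 CPM scale, had groups apart and had no predicted name: the 12 largest rises, the 12 largest falls and the 6 of smallest p. Added were, from each list, the called members of smallest p (at most 4), 2 of highest level where none was called, and a set of hormone, beta cell, growth and immediate early genes (such as Ins1, Gcg, Pdx1, Mki67, Cdkn1a, Igf2 and Egr4). Man2b1, Nr4a2, Jun, Fos, Egr2, Crem, Ing3, Cdc20, Pcna, Ccnd2, Cdk4, Trp53, Arntl, Adgre1, Col1a1, Insm1, Hspa4, Hspa9 and Reg3b, and the families in the closing section, may fall outside this rule and were named after their values were seen. Coordinates and transcripts came from GENCODE M21 on the same build.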

Additional observations from a re-analysis of the deposited data

How the results depend on the processing

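Of the 547 genes called none changed direction under any alternative, and scaling by RLE or by library sizes that leave out the 50 most abundant genes moved the median of all genes from -0.01 to 0.01. The count was 1177 with DESeq2 (416 higher, 761 lower), 899 with only the 3 and 5 DPA libraries in the fit (278 higher), 340 with the replicate block over all 12 libraries (241 lower) and 280 with the replicate block for the 3 and 5 DPA libraries only (67 higher, 213 lower). The fit without a filter called 266 lower. Leaving out 1 library gave 31 to 288 calls, 3 to 13 higher and 23 to 276 lower. The share of calls that were higher was 22.3% over all libraries, 35.3% with DESeq2, 10.4%, 4.17% and 5.38% when 3 DPA replicates 1, 2 and 3 were left out in turn, and 9.09%, 25.8% and 18.6% when 5 DPA replicates 1, 2 and 3 were. These fits hold fewer samples, and other causes were not tested. With 1 library left out, the difference in insulin share went from -1.13 to 1.35 percentage points (-0.386 without 3 DPA replicate 1), and that in mitochondrial share from -0.164 to 0.00829. Some genes without a call changed sign with 1 library left out, over these ranges of log2 fold change: Hspa5 -0.08 to 0.02 (0.01 without a filter), Hsp90b1 -0.02 to 0.04, Txnrd1 -0.03 to 0.02, Ccnd2 -0.02 to 0.08, Slc2a2 -0.04 to 0.15, Trp53 -0.12 to 0.01, Ttr -0.46 to 0.14, Reg1 -0.39 to 1.18 and Reg3b -6.78 to 3.33. Txnrd1 also did so with RLE (0.01), with DESeq2 (0.01), without a filter (0.03) and when the most abundant genes were left out of library sizes (0.02).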

Other observations

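Called proton pump and protease genes of the lysosome went in different directions. Families in this section were put together by gene symbol after the values were seen. Of 20 tested subunits of the V-ATPase, the pump that acidifies lysosomes and secretory granules, 5 fell and 1 rose, beside 2.46% of all genes lower and 0.705% higher. Leaving out 1 library gave 0 to 5 lower calls and 0 higher. Atp6v1h gave 152, 125 and 135 CPM at 3 DPA and 95.2, 92.3 and 91.7 CPM at 5 DPA (log2 fold change -0.56 ± 0.08, edgeR adjusted p = 0.0102; called in 4 of the 6 fits that left out a library), and Atp6v0c gave 339, 276 and 311 CPM and then 229, 225 and 219 CPM (edgeR adjusted p = 0.0119; called in 2 of the 6). The subunit that rose was Tcirg1, the a3 isoform prominent in osteoclasts and macrophages, from 39.5, 30.8 and 27.2 CPM to 57.7, 51.7 and 61.1 CPM (edgeR adjusted p = 0.0347). Of 12 tested cathepsins 3 rose and none fell, and all 3 calls were lost in each of the 6 fits. Other lysosomal genes that rose were Psap, the saposin precursor (log2 fold change 0.46, edgeR adjusted p = 0.0323), Gusb, the glucuronidase (0.45, adjusted p = 0.0406), and Npc1, the cholesterol exporter (0.31, adjusted p = 0.0430). None of Tcirg1, Psap, Gusb and Npc1 was called in any of the 6.

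A few RNA processing and translation genes fell. Of 20 tested heterogeneous nuclear ribonucleoproteins 3 fell and 19 of the 20 fold changes were below 0, with 1 to 3 called when 1 library was left out. Hnrnph2 gave 304, 215 and 226 CPM at 3 DPA and 142, 137 and 126 CPM at 5 DPA (log2 fold change -0.88 ± 0.12, edgeR adjusted p = 0.00682) and was called in all 6 fits that left out a library. Of 11 tested SR splicing factors 2 fell, Srsf1 and Srsf3, each by 0.54 on the log2 scale (edgeR adjusted p = 0.0255 and 0.0325; each called in 1 of the 6). In the small subunit processome, which builds ribosomes, 3 of 9 UTP genes fell, led by Utp18, from 38.4, 34.3 and 35.8 CPM to 25.5, 24.2 and 24.9 CPM (edgeR adjusted p = 0.0102; called in 4 of the 6). Of 52 tested EIF initiation factor genes 5 fell, among them Eif4e, the cap-binding protein, by 0.48 (edgeR adjusted p = 0.0119; called in 2 of the 6), and 0 to 5 were called when 1 library was left out. The share of all genes that fell was 2.46%. Of 40 tested ZBTB zinc finger genes 4 fell, and 3 of these calls, Zbtb10, Zbtb21 and Zbtb2, held in all 6 fits with a library left out.

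Reg3b, an injury-induced lectin of pancreas, stood at 75.4 CPM in 3 DPA replicate 1 and between 0.0207 and 2.19 CPM in the other 5 libraries of these days (edgeR adjusted p = 0.317).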
